A study of Rattus norvegicus with 6 samples.

Results

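Axon guidance ligands, their receptors and a few of their intracellular partners were examined in primary vascular smooth muscle cells (VSMCs) of the rat thoracic aorta. The members were chosen by gene symbol, as all semaphorins, plexins, slits, Robo receptors, netrins, Unc5 receptors, ephrins and Eph receptors listed in the deposited table, together with Nrp1, Nrp2, Dpysl2, Dpysl3 and the srGAP genes Srgap1, Srgap2 and Srgap3. This gave 56 of the 13526 genes in the table. Of these 56, the KEGG pathway axon guidance is listed beside 53 and a GO term for axon guidance beside 50. RNA was sequenced from 3 samples in osteogenic media (OM) with 1 μM empagliflozin, a drug that blocks the kidney glucose transporter SGLT2 (OM plus EMPA group), and from 3 samples in OM alone (OM group). OM contained 10 mM β-GP and 3.5 mM CaCl2, and both groups were of WT genotype and were cultured for 5 days by the sample labels. The legend for these samples in the publication gives a shorter culture. In the sample titles the medium is called Pi, a name the study also uses for a separate inorganic phosphate medium, so the labels are at odds over the medium, and the group names used here follow the treatment protocol. The cells came from male rats, from the aortic wall after the adventitia and intima had been removed, and were passaged before use. Cells in complete media without the osteogenic supplements were not analysed here, so each value compares empagliflozin with no empagliflozin in OM. Whether the 3 samples of each group are separate cultures or animals is not stated. Each p-value therefore reflects the spread between these samples alone, and that spread may be technical.

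Axon guidance cues are secreted or membrane-bound proteins that steer growing axons by attraction or repulsion, and the same proteins act on blood vessels and migrating cells. Semaphorins bind plexins, and most secreted semaphorins need a neuropilin as co-receptor. Slits bind Robo receptors, which recruit srGAPs, proteins that act on the actin cytoskeleton. Netrins bind Unc5 receptors and Dcc, and ephrins bind Eph receptor tyrosine kinases on the neighbouring cell. In the vessel wall these systems are best known from endothelial cells, where ephrin-B2 marks arteries and EphB4 marks veins.

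Values are TPM, transcript abundances corrected for transcript length, so that levels can be compared between genes. They sum to 997954 to 998293 in each library and keep no record of sequencing depth, which is therefore unknown. The 12564 genes averaging at least 1 TPM were tested with limma on the log2(TPM + 1) scale, and a gene was called higher or lower at an adjusted p of at most 0.05. In this test 259 genes (2.06%) were higher and 611 (4.86%) lower in the OM plus EMPA group. When each library was instead rescaled to the median gene ratio (median-ratio scaling), 393 (3.13%) were higher and 380 (3.02%) lower. The smooth muscle markers Acta2, Tagln, Cnn1 and Lmod1 rose. Smtn (log2 fold change 0.15) and Myh11 (-0.17) did not pass the test, and Des was not analysed here. The 6 measured markers summed to 2478 to 2924 TPM in the OM plus EMPA libraries, against 1756 to 2157 TPM in the OM libraries. Of 6 markers of adventitial fibroblasts 5 were measured, at a sum of 4637 to 5409 TPM in OM plus EMPA, against 6093 to 6937 TPM in OM. Most of this sum was Dcn, which averaged 4113 TPM in OM plus EMPA, against 5401 TPM in OM. Dcn and Pdgfra fell, whereas Lum (log2 fold change -0.09) and Pi16 (0.26) did not pass the test and Dpt was not tested. Only Erg of 8 endothelial markers was listed, at 2.79 to 3.89 TPM in OM plus EMPA, against 1.70 to 3.89 TPM in OM. Of 8 leukocyte markers 2 were listed, at a sum of 30.1 to 40.0 TPM in OM plus EMPA, against 40.5 to 44.3 TPM in OM. Cd68 fell, and Cd14 did not pass. Mitochondrially encoded genes took 10.3 to 10.9% of the TPM in the OM plus EMPA libraries, against 8.0 to 9.69% in the OM libraries. The part of these marker and mitochondrial differences in the results on the members was not tested. In a bulk sample, fewer cells of a type and less RNA per cell cannot be told apart.

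Of the 56 members 41 reached the filter of 1 TPM and were tested. Among them Sema7a rose (1 gene, 2.44% of the 41), and Sema4b, Nrp2 and Dpysl3 fell (3 genes, 7.32%), against 2.06% higher and 4.86% lower over all tested genes. The other 37 tested members did not pass. The share of members called thus lay near that of all genes. The median log2 fold change of the 41 tested members was 0.03, beside -0.05 over all tested genes, with 21 values above and 20 below 0. This median of the members was 0.08 under median-ratio scaling, beside 0.0002 over all tested genes. It was -0.0016 without OM plus EMPA replicate 1 (all tested genes -0.06) and -0.01 without OM plus EMPA replicate 3 (all tested genes -0.05). When OM replicate 1 was left out it was 0.0004 (all tested genes -0.05), so its sign depended on single libraries. Sema7a was the only tested member that differed by 1.5-fold or more on the log2(TPM + 1) scale, which shrinks the changes of low genes. With a pseudocount of 0.1 the log2 fold change was 0.92 for Sema7a and 0.96 for Srgap3, which did not pass. The libraries of both groups did not overlap for 7 higher members (17.1%, against 7.85% of all tested genes) and 5 lower members (12.2%, against 22.5%). For 29 of the 37 members that did not pass, the 95% interval of the log2 fold change lay within 0.5 on either side of 0. The share of all tested genes with such an interval was not counted. Adding 1 TPM narrows the interval of low genes, and the median level was 6.09 TPM over the 56 members, beside 18.5 TPM over all tested genes.

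**Figure D1:**
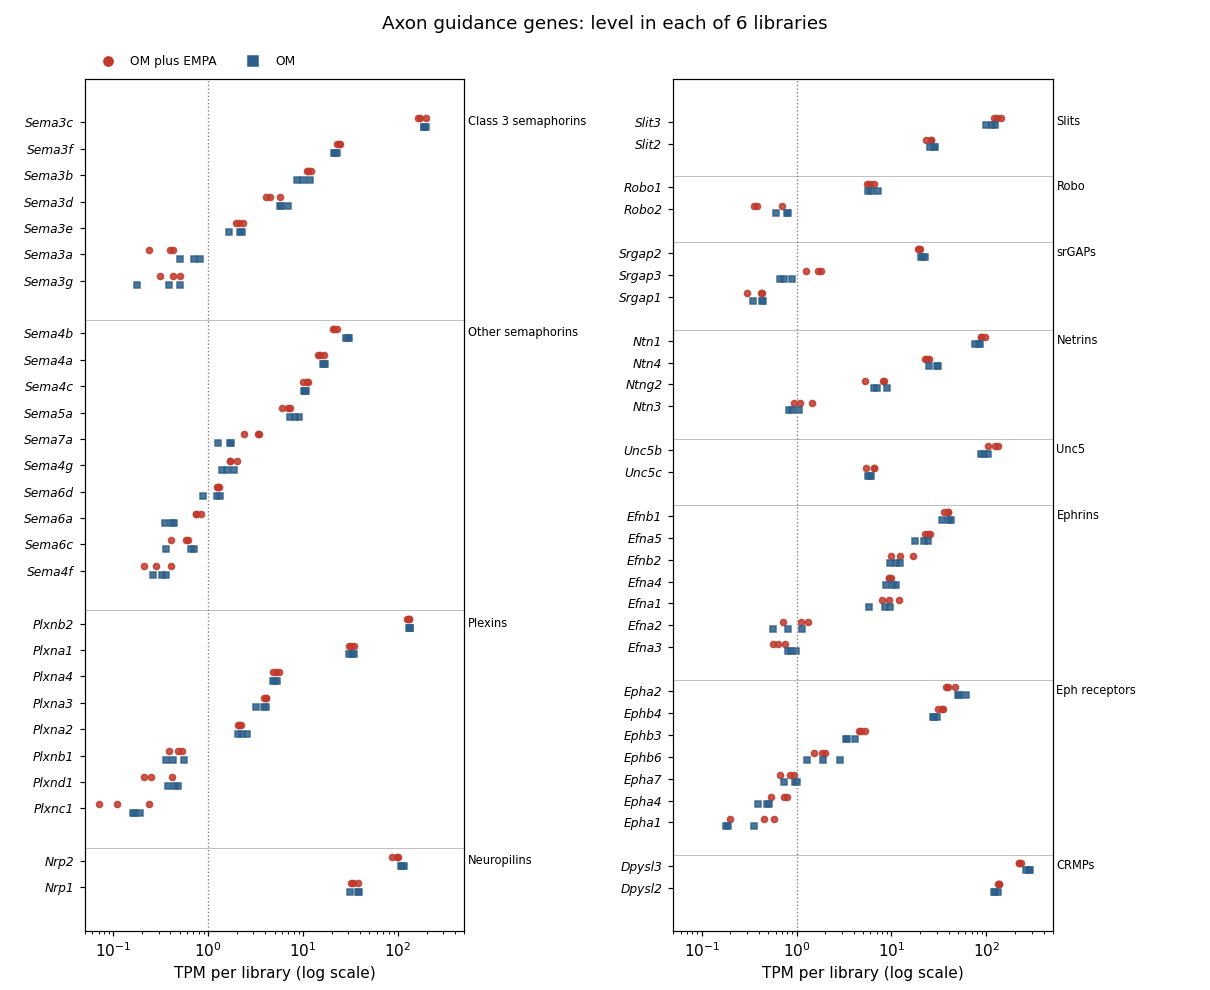
TPM of each of the 56 members in each of 6 libraries on a log axis, grouped by role, with OM plus EMPA libraries as circles above the OM libraries as squares. The dotted line marks 1 TPM. Levels run from 0.07 TPM for Plxnc1 to 290.8 TPM for Dpysl3, and for most members both groups lie close together.

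The 5′ flanks of the 4 called members are printed here, the choice resting only on the threshold of an adjusted p of at most 0.05. Promoter windows of 300 bases, 250 before and 50 after the RefSeq transcription start, were found for 44 of the 56 members (47 windows, GRCr8 build). Capitals mark the GC box, GGGCGG on either strand, a sequence that Sp1-type factors can bind. The Sema4b window lies on the plus strand at chr1:143558547-143558846, the Sema7a window on the plus strand at chr8:67244068-67244367, the Nrp2 window on the plus strand at chr9:71617004-71617303, and the Dpysl3 window, the more upstream of 2 listed, on the minus strand at chr18:35731103-35731402.
Sema4b: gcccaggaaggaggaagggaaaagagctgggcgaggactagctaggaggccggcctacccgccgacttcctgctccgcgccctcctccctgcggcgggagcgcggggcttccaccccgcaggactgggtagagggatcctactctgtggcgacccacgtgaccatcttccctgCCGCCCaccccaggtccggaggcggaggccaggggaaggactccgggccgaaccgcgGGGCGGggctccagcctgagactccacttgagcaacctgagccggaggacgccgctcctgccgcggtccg
Sema7a: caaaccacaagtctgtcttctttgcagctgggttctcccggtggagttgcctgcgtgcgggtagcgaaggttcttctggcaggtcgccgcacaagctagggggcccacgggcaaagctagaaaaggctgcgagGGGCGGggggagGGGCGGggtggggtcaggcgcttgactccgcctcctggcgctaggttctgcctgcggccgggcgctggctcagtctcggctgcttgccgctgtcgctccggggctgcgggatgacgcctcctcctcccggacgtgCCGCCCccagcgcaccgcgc
Nrp2: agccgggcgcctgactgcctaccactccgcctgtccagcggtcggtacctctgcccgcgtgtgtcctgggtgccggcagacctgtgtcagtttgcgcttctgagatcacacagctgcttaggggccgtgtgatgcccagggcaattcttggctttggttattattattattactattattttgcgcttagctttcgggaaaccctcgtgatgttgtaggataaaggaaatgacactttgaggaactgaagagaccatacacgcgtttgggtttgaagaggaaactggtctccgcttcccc
Dpysl3: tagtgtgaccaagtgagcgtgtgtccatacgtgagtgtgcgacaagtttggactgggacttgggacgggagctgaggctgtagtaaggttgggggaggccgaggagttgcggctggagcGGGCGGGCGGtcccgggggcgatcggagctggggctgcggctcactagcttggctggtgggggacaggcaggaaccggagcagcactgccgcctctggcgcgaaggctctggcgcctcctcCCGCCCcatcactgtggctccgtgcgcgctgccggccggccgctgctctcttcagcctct

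The Sema4b window held 2 GC boxes, the Sema7a window 3, the printed Dpysl3 window 3 (counting overlapping matches) and the Nrp2 window 0. GC content was 71.3% for Sema4b, 69.7% for Sema7a, 68.0% for the printed Dpysl3 window and 53.0% for Nrp2, beside a median of 51.7% over all 33469 windows. The other Dpysl3 window, at chr18:35688462-35688761, held 1 GC box and had a GC content of 62.3%. Which of the 2 starts these cells used was not examined. A GC box occurred in 33.1% of all windows and in those of 28 of the 44 matched members. TATAAA, read on both strands, occurred in 14.2% of all windows and TGANTCA, the AP-1 motif, in 7.3%, and neither occurred in a member's window. The CArG box, bound by serum response factor, occurred in 1.6% of all windows and in those of 2 members, and the NF-κB motif in 4.2% and in those of 3 members, in neither case in the windows printed here. These matches describe the sequence only.

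Among the semaphorins, Sema3c was the most abundant, and the 2 that passed the test were membrane-bound. Of 17 semaphorin genes 12 were tested, of which 1 rose, 1 fell and 10 did not pass. Over all tested genes 2.06% rose and 4.86% fell. Sema4b, a transmembrane semaphorin of class 4, had 22.8, 21.3 and 20.8 TPM in the OM plus EMPA libraries, against 30.0, 28.4 and 30.5 TPM in the OM libraries. All OM plus EMPA libraries lay below all OM libraries. Sema4b fell by 0.44 on the log2 scale (SE 0.06, 95% interval -0.57 to -0.30, adjusted p = 0.00711 from limma). The fall passed the test in each of the 12 alternatives tried, with an adjusted p from limma of 0.0072 to 0.033.

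Sema7a, which is held to the membrane by a lipid anchor and binds Plxnc1 and integrins, had 2.41, 3.44 and 3.34 TPM in the OM plus EMPA libraries, against 1.28, 1.68 and 1.75 TPM in the OM libraries. The groups did not overlap, and the first OM plus EMPA library was the lowest of its group. Sema7a rose by 0.66 (SE 0.15, 95% interval 0.31 to 1.00, adjusted p = 0.0413 from limma), and by 0.92 with a pseudocount of 0.1, since adding 1 TPM shrinks the change of a gene at this level. The call was lost when any 1 library other than OM plus EMPA replicate 1 was left out, with an adjusted p from limma of up to 0.137 (without OM plus EMPA replicate 2). Its receptor Plxnc1 was at 0.07 to 0.24 TPM in the OM plus EMPA libraries, against 0.16 to 0.19 TPM in the OM libraries and was not tested.

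The 7 listed genes of class 3, which encode secreted semaphorins, summed to 219 ± 19.9 TPM in the OM plus EMPA group, against 234 ± 5.67 TPM in the OM group (SD, n = 3 each). Sema3c, which guides neural crest cells into the cardiac outflow tract in the mouse, supplied 79.3 to 81.6% of this sum in the OM plus EMPA libraries, against 81.4 to 83.2% in the OM libraries. Sema3c was at 197, 172.5 and 161 TPM in the OM plus EMPA libraries, against 199.7, 189 and 189 TPM in the OM libraries (log2 fold change -0.13, 95% interval -0.29 to 0.04, adjusted p = 0.332 from limma). The groups overlapped, because the first OM plus EMPA library lay as high as the OM libraries. Sema3f, a ligand of Nrp2, had 24.4, 22.6 and 23.8 TPM in OM plus EMPA, against 21.3, 22.6 and 21.9 TPM in OM (log2 fold change 0.10). Sema3b averaged 11.4 ± 0.579 TPM in OM plus EMPA, against 10.1 ± 1.69 TPM in OM (SD, n = 3 each), with a log2 fold change of 0.17. Sema3d had 5.76, 4.03 and 4.46 TPM in OM plus EMPA, against 7.0, 5.79 and 5.70 TPM in OM (log2 fold change -0.32, adjusted p = 0.193 from limma). Sema3a, the founding repulsive semaphorin, was under the filter, at 0.43, 0.40 and 0.24 TPM in OM plus EMPA, against 0.83, 0.50 and 0.71 TPM in OM. All OM plus EMPA libraries lay below all OM libraries for Sema3a, which had a log2 fold change of -0.31 and an adjusted p of 0.18 from limma when no filter was applied.

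In the deposited table Sema3c, Sema3e, Sema3a and Sema3d lie on the minus strand of chromosome 4, within 4.92 Mb from 17583212 to 22505930, in coordinates whose build no source used here gives. These 4 genes were at very different levels, with Sema3c at 161 to 199.7 TPM and Sema3e, Sema3a and Sema3d at 0.24 to 7.0 TPM over the 6 libraries. Sema3b and Sema3f lie within 115.4 kb on chromosome 8 and were both above 8 TPM in each library. In the same coordinates Sema4b spans 134149536 to 134177775 on the plus strand of chromosome 1 and Sema7a 58348448 to 58370536 on the plus strand of chromosome 8. Nrp2 spans 64122381 to 64238005 on the plus strand of chromosome 9, and Dpysl3 spans 35374176 to 35480157 on the minus strand of chromosome 18. The locus as deposited ran beyond the annotated gene for 13 of the 56 members, Dpysl3 among them by 3005 bases.

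Of the other membrane-bound semaphorins, Sema4a had 14.3, 15.1 and 16.8 TPM in OM plus EMPA, against 16.6, 16.4 and 17.1 TPM in OM. Sema4c averaged 10.7 ± 0.639 TPM in OM plus EMPA, against 10.5 ± 0.169 TPM in OM (SD, n = 3 each). Their log2 fold changes were -0.12 and 0.03. Sema4b was thus the class 4 member that differed most, and the ratio of Sema4b to Sema4a TPM within a library was 1.6, 1.41 and 1.24 with empagliflozin, against 1.80, 1.73 and 1.78 in OM. Such a ratio, which was not tested, does not depend on how the libraries are scaled. Within each class, class 3 semaphorins apart, the ratio of the 2 most abundant members was taken. The groups overlapped for Plxnb2 to Plxna1, Nrp2 to Nrp1, Slit3 to Slit2, Robo1 to Robo2, Unc5b to Unc5c and Efnb1 to Efna5. They did not for Sema3c to Sema3f, Sema4b to Sema4a, Srgap2 to Srgap3, Ntn1 to Ntn4, Epha2 to Ephb4 and Dpysl3 to Dpysl2. For the srGAP, Eph receptor and CRMP pairs this outcome was fixed in advance by the levels of the single genes. In each of these pairs the groups did not overlap for either gene, the first being lower and the second higher. Ratios of genes outside the members were not examined, so no share for other gene pairs can be given. Sema5a averaged 6.70 ± 0.617 TPM in OM plus EMPA, against 8.18 ± 0.921 TPM in OM (log2 fold change -0.25, adjusted p = 0.197 from limma). Sema6a was under the filter at 0.74, 0.84 and 0.75 TPM in the OM plus EMPA libraries, against 0.35, 0.44 and 0.42 TPM in the OM libraries. The groups did not overlap, and Sema6a had a log2 fold change of 0.34 when no filter was applied (adjusted p = 0.083 from limma). Sema4g and Sema6d were between 0.88 and 1.99 TPM, and Sema3g, Sema4f and Sema6c between 0.18 and 0.71 TPM, over the 6 libraries.

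The plexins, the signalling receptors of the semaphorins, did not differ detectably. Of 8 plexin genes 5 were tested, and 0 passed the test in limma or had an unadjusted p of at most 0.05. Over all tested genes 24.1% had such an unadjusted p. Plxnb2, a receptor of class 4 semaphorins, had 132.1, 123.7 and 129.9 TPM in the OM plus EMPA libraries, against 132.1, 134.8 and 135.1 TPM in the OM libraries, and supplied 73.2 to 76.1% of all plexin TPM. Its log2 fold change was -0.06 (95% interval -0.15 to 0.04, adjusted p = 0.421 from limma). Plxna1, which signals for neuropilin-bound class 3 semaphorins, had 31.6, 30.4 and 34.5 TPM in OM plus EMPA, against 32.5, 34.3 and 30.6 TPM in OM, with a log2 fold change of -0.01 (95% interval -0.17 to 0.14). The groups overlapped for both. Plxna2, Plxna3 and Plxna4 were between 2.06 and 5.57 TPM over the 6 libraries. The 95% intervals of the 5 tested plexins spanned -0.34 to 0.34. Plxnb1, Plxnc1 and Plxnd1 were under the filter, at 0.07 to 0.56 TPM.

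The neuropilins bind class 3 semaphorins and VEGF. Nrp2 had 96.7, 87.0 and 99.0 TPM in the OM plus EMPA libraries, against 108.7, 110.9 and 115.6 TPM in the OM libraries, with no overlap. Nrp2 fell by 0.25 (SE 0.06, 95% interval -0.38 to -0.11, adjusted p = 0.0449 from limma), close to the threshold. The call was lost under median-ratio scaling of the libraries (log2 fold change -0.19, adjusted p = 0.0896 from limma), without mitochondrially encoded genes (-0.22, adjusted p = 0.0694 from limma), without a variance trend (adjusted p = 0.1 from limma) and when any 1 library was left out (-0.28 to -0.19, adjusted p 0.0597 to 0.135 from limma). Nrp1 had 32.1, 33.5 and 37.7 TPM in OM plus EMPA, against 31.0, 37.7 and 38.6 TPM in OM (log2 fold change -0.05, 95% interval -0.27 to 0.17). The ratio of Nrp2 to Nrp1 within a library was 3.01, 2.60 and 2.63 with empagliflozin, against 3.50, 2.94 and 3.0 in OM, and the groups overlapped.

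**Figure D2:**
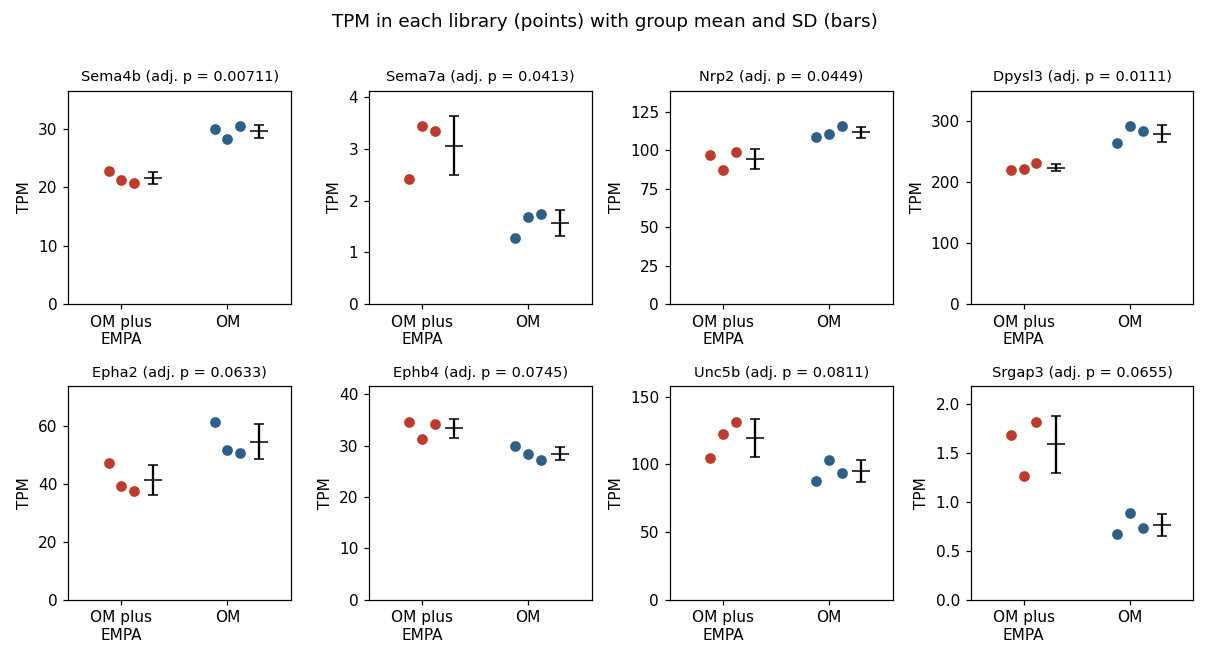
TPM in each library (points) of Sema4b, Sema7a, Nrp2 and Dpysl3, which passed the test, and of Epha2, Ephb4, Unc5b and Srgap3, which did not, with OM plus EMPA left of OM, the group mean and SD (n = 3) beside the points and axes from 0. In each panel the groups do not overlap, and the adjusted p above the panels runs from 0.00711 for Sema4b to 0.0811 for Unc5b.

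Slit3 was about as abundant as Plxnb2, while its receptors were low. Slit3, a secreted ligand of the Robo receptors, had 120.7, 142.3 and 130.3 TPM in the OM plus EMPA libraries, against 100, 124.4 and 114.4 TPM in the OM libraries (log2 fold change 0.22, 95% interval 0.01 to 0.42, adjusted p = 0.19 from limma). The highest OM library lay above the lowest OM plus EMPA library. Slit2 had 25.9, 23.2 and 25.9 TPM in OM plus EMPA, against 28.3, 25.6 and 28.7 TPM in OM (log2 fold change -0.13, 95% interval -0.29 to 0.03). Robo1 had 6.56, 5.94 and 5.55 TPM in OM plus EMPA, against 5.71, 7.24 and 6.03 TPM in OM (log2 fold change -0.06, 95% interval -0.31 to 0.19), and Robo2, under the filter, had 0.36, 0.70 and 0.38 TPM in OM plus EMPA, against 0.60, 0.81 and 0.79 TPM in OM. The groups overlapped for all 4 genes.

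Of the srGAPs, which act below Robo, Srgap2 had 20.0, 19.0 and 19.5 TPM in the OM plus EMPA libraries, against 20.3, 22.6 and 21.6 TPM in the OM libraries (log2 fold change -0.13, adjusted p = 0.223 from limma). Srgap3 had 1.68, 1.26 and 1.82 TPM in OM plus EMPA, against 0.67, 0.89 and 0.73 TPM in OM. The groups did not overlap for either gene, and they differed in opposite directions. Srgap3 had a log2 fold change of 0.55 (SE 0.15, 95% interval 0.21 to 0.88, adjusted p = 0.0655 from limma). With a pseudocount of 0.1 the log2 fold change of Srgap3 was 0.96 (adjusted p = 0.0677 from limma). It passed the test without the filter on low values (adjusted p = 0.0412 from limma) and without a variance trend (adjusted p = 0.0371 from limma), and in 0 of the 6 fits that left out a library. The ratio of Srgap2 to Srgap3 within a library was 11.9, 15.1 and 10.7 with empagliflozin, against 30.3, 25.4 and 29.6 in OM. Srgap1 was at 0.30 to 0.44 TPM over the 6 libraries.

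The netrin system held 2 of the more abundant members, the ligand Ntn1 and its receptor Unc5b. Of 4 netrin genes and 2 Unc5 genes tested, 0 passed in limma. An unadjusted p of at most 0.05 was found for 3 of these genes, against 24.1% of all tested genes. Ntn1, the classical netrin, had 87.2, 87.8 and 96.9 TPM in the OM plus EMPA libraries, against 75.6, 83.4 and 86.0 TPM in the OM libraries (log2 fold change 0.15, 95% interval 0.0005 to 0.30, adjusted p = 0.206 from limma). Ntn4, a netrin of basement membranes, had 23.6, 22.7 and 25.1 TPM in OM plus EMPA, against 24.7, 30.5 and 31.0 TPM in OM (log2 fold change -0.26, adjusted p = 0.144 from limma). Of the 6 fits that left out a library, Ntn4 passed in 1, without OM replicate 1 (adjusted p = 0.0413 from limma). The adjusted p from limma was up to 0.327 in the others. The ratio of Ntn1 to Ntn4 within a library was 3.69, 3.87 and 3.86 with empagliflozin, against 3.06, 2.73 and 2.78 in OM, and these ratios did not overlap. Ntng2, which encodes a netrin-G protein anchored in the membrane, was at 5.31 to 9.06 TPM and Ntn3 at 0.83 to 1.44 TPM over the 6 libraries.

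Unc5b had 104.6, 122.8 and 131.8 TPM in the OM plus EMPA libraries, against 88.1, 103.6 and 93.8 TPM in the OM libraries. The groups did not overlap, by a margin of less than the spread within either group. The log2 fold change was 0.32 (SE 0.09, 95% interval 0.11 to 0.54, adjusted p = 0.0811 from limma). Of the 6 fits that left out a library, Unc5b passed in 1, without OM plus EMPA replicate 1 (adjusted p = 0.0403 from limma). The adjusted p from limma was up to 0.212 in the others. In the deposited table the assembled Unc5b locus runs from 28646081 to 28764537 on the minus strand of chromosome 20, 51645 bases beyond the annotated gene, and overlaps Slc29a3 on the same strand, so reads of both genes may not be separable. Slc29a3 had a log2 fold change of -0.05. Unc5c had 6.52, 6.47 and 5.35 TPM in OM plus EMPA, against 5.72, 5.88 and 6.09 TPM in OM (log2 fold change 0.04). The netrin receptor Dcc was not analysed here, and the log2 fold change of Neo1, a related receptor, was -0.05.

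The ephrins, the ligands of the Eph receptors, did not pass the test. In limma 0 of the 5 tested had an unadjusted p of at most 0.05, against 24.1% of all tested genes. Efnb1, a transmembrane ephrin and the most abundant, had 35.5, 39.8 and 39.4 TPM in the OM plus EMPA libraries, against 34.2, 40.2 and 41.9 TPM in the OM libraries (log2 fold change -0.02, 95% interval -0.21 to 0.18). Efna5, an ephrin held by a lipid anchor, had 24.2, 22.5 and 25.2 TPM in OM plus EMPA, against 17.7, 24.0 and 21.9 TPM in OM (log2 fold change 0.18, 95% interval -0.07 to 0.42). The groups overlapped for both. Efnb2, the arterial ephrin and ligand of EphB4, had 16.8, 12.5 and 9.86 TPM in OM plus EMPA, against 12.2, 11.3 and 9.67 TPM in OM (log2 fold change 0.20, 95% interval -0.20 to 0.60), and Efna1, a ligand of EphA2, had 7.96, 9.45 and 12.1 TPM in OM plus EMPA, against 5.76, 9.67 and 8.55 TPM in OM (log2 fold change 0.28, 95% interval -0.17 to 0.73). Both varied as much within a group as between the groups. Efna1, Efna3 and Efna4 lie within 71.3 kb on chromosome 2. Of these Efna4 averaged 9.56 ± 0.204 TPM in OM plus EMPA, against 10.2 ± 1.24 TPM in OM (SD, n = 3 each), and Efna3 was under the filter at 0.64, 0.75 and 0.57 TPM in OM plus EMPA, against 0.81, 0.87 and 0.98 TPM in OM, with no overlap and an adjusted p of 0.304 from limma when no filter was applied. Efna2 was at 0.56 to 1.32 TPM over the 6 libraries.

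Among the Eph receptors the 2 most abundant genes differed in opposite directions, and neither passed the test. Of 7 genes 4 were tested and 0 passed in limma. An unadjusted p of at most 0.05 was found for 3 of these 4, against 24.1% of all tested genes. Epha2 had 47.2, 39.2 and 37.7 TPM in the OM plus EMPA libraries, against 61.5, 51.6 and 50.6 TPM in the OM libraries, with no overlap (log2 fold change -0.39, SE 0.10, 95% interval -0.63 to -0.15, adjusted p = 0.0633 from limma). Of the 6 fits that left out a library, Epha2 passed in 1, without OM plus EMPA replicate 1, the highest of its group (adjusted p = 0.0415 from limma). The adjusted p from limma was up to 0.184 in the others. Ephb4 had 34.7, 31.3 and 34.3 TPM in OM plus EMPA, against 29.9, 28.4 and 27.2 TPM in OM, again with no overlap (log2 fold change 0.22, SE 0.06, 95% interval 0.08 to 0.37, adjusted p = 0.0745 from limma). Under median-ratio scaling Ephb4 passed, with a log2 fold change of 0.28 and an adjusted p of 0.0288 from limma. It passed in 0 of the 6 fits that left out a library. Ephb3 had 4.77, 5.21 and 4.53 TPM in OM plus EMPA, against 3.39, 4.10 and 3.34 TPM in OM (log2 fold change 0.34, 95% interval 0.09 to 0.59, adjusted p = 0.103 from limma).

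The ratio of Epha2 to Ephb4 within a library, which the scaling of the libraries cannot change, was 1.36, 1.25 and 1.10 with empagliflozin, against 2.06, 1.82 and 1.86 in OM. Epha2 made up 47.2 to 52.1% of all Eph receptor TPM in the OM plus EMPA libraries, against 58.7 to 63.0% in the OM libraries. The 3 EphB genes summed to 40.1 ± 1.45 TPM in the OM plus EMPA group, against 34.1 ± 0.613 TPM in the OM group, and the 4 EphA genes to 43.3 ± 5.24 TPM in OM plus EMPA, against 56.2 ± 6.04 TPM in OM (SD, n = 3 each). Ephb6, which lacks an active kinase, was at 1.30 to 2.90 TPM, and Epha1, Epha4 and Epha7 were under the filter at 0.18 to 1.00 TPM over the 6 libraries. Epha4 was at 0.74, 0.79 and 0.54 TPM in OM plus EMPA, against 0.39, 0.49 and 0.51 TPM in OM, with no overlap and an adjusted p of 0.296 from limma when no filter was applied. Together with Sema3a, Sema6a and Efna3 it was one of 4 of the 15 untested members (26.7%) whose groups did not overlap, against 17.8% of the 962 genes under the filter.

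**Figure D3:**
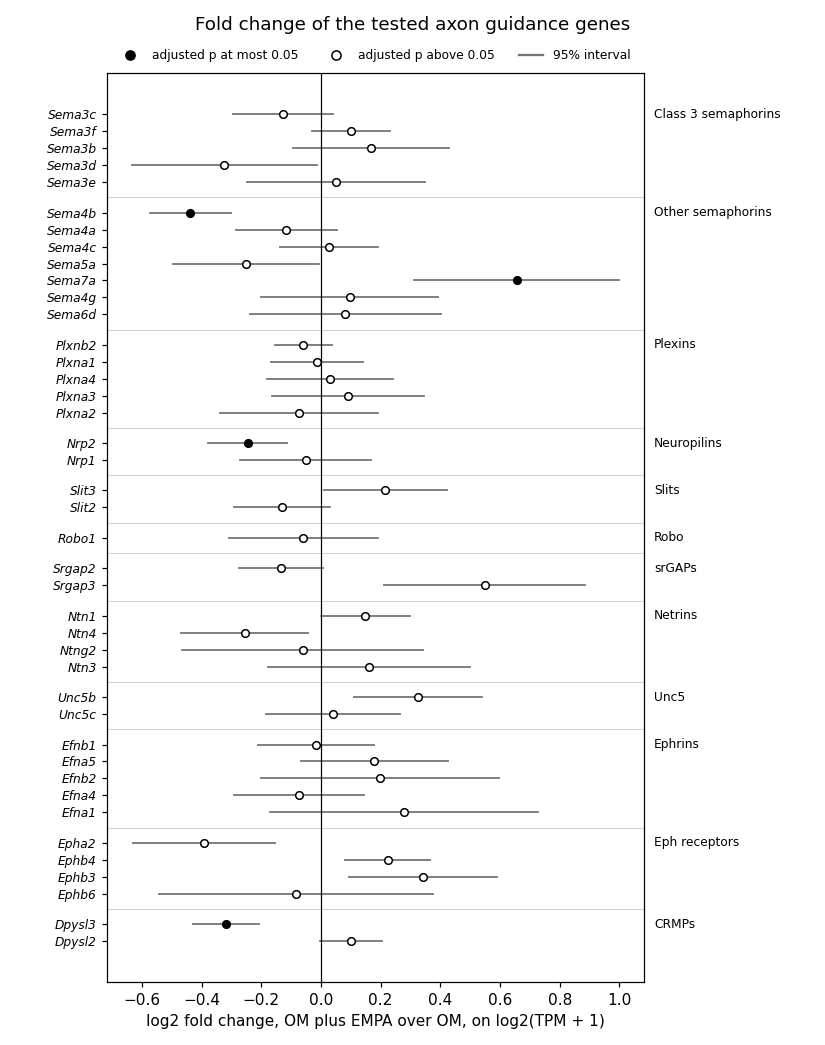
Fold change (x axis, log2 of TPM + 1, OM plus EMPA over OM) of the 41 tested members by role, as points with 95% intervals. Filled points, those that passed the limma test at an adjusted p of 0.05, are Sema4b (-0.44), Dpysl3 (-0.32) and Nrp2 (-0.25) below 0 and Sema7a (0.66) above it, and the intervals of the plexins all include 0.

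Dpysl2 and Dpysl3 encode CRMPs, cytosolic proteins through which semaphorin signals reach microtubules and actin. Dpysl3, also known as CRMP4 and the most abundant of all 56 members, had 218.5, 221.3 and 230 TPM in the OM plus EMPA libraries, against 263.4, 290.8 and 282.3 TPM in the OM libraries. The groups did not overlap, and the highest OM plus EMPA library lay below the lowest OM library. Dpysl3 fell by 0.32 (SE 0.05, 95% interval -0.43 to -0.21, adjusted p = 0.0111 from limma) and passed the test in each of the 12 alternatives tried, with an adjusted p from limma of 0.00606 to 0.0471. Dpysl2, also known as CRMP2, had 135.5, 133.6 and 135.4 TPM in OM plus EMPA, against 121.7, 132.5 and 123 TPM in OM. Its groups did not overlap, but the log2 fold change of 0.10 did not pass (95% interval -0.0021 to 0.20, adjusted p = 0.216 from limma). The ratio of Dpysl3 to Dpysl2 within a library was 1.61, 1.66 and 1.70 with empagliflozin, against 2.16, 2.20 and 2.30 in OM.

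Further genes of the pathway were taken from a list of 71 co-receptors, other cues and intracellular signalling genes, of which 58 were in the table and 53 were tested. Of these 4 rose (7.55% of the 53, against 2.06% of all tested genes), 2 fell (3.77%, against 4.86%) and 47 did not pass, with a median log2 fold change of -0.02. Dcbld2, a neuropilin-like membrane protein, had 215.8, 217.1 and 228.3 TPM in the OM plus EMPA libraries, against 303.6, 299.1 and 307.8 TPM in the OM libraries. With a log2 fold change of -0.46, Dcbld2 fell (SE 0.04, adjusted p = 0.00199 from limma). Rasa1, a Ras GTPase-activating protein that binds EphB receptors, averaged 47.2 ± 2.33 TPM in OM plus EMPA, against 58.2 ± 1.97 TPM in OM (SD, n = 3 each) and fell by 0.30 (adjusted p = 0.0185 from limma).

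The genes of this list that rose were Vegfa, whose protein also binds neuropilins, Cxcl12, a chemokine that guides axons and other cells, Rock2, a kinase that acts on actin and myosin, and Mical1, an oxidoreductase that disassembles actin below plexins. Vegfa averaged 146 ± 2.88 TPM in the OM plus EMPA group, against 122 ± 3.20 TPM in the OM group (log2 fold change 0.25, adjusted p = 0.0122 from limma), and Cxcl12 averaged 1451 ± 10.4 TPM in OM plus EMPA, against 1161 ± 79.2 TPM in OM (0.32, adjusted p = 0.0181 from limma; SD, n = 3 each). Rock2 averaged 128 ± 2.45 TPM in OM plus EMPA, against 102 ± 6.92 TPM in OM (log2 fold change 0.32, adjusted p = 0.0164 from limma) and Mical1 22.8 ± 1.75 TPM in OM plus EMPA, against 16.4 ± 1.44 TPM in OM (0.45, adjusted p = 0.0213 from limma). Farp1, Farp2, Arhgef11 and Arhgef12, exchange factors that act below plexins, did not pass. The call of Dcbld2 held without any 1 library, whereas Vegfa lost it without OM replicate 3 (adjusted p = 0.0513 from limma), Rasa1 without 4 of the 6 libraries in turn, Cxcl12 and Mical1 without 4 each and Rock2 without 3, with an adjusted p from limma of up to 0.0768 (Mical1 without OM plus EMPA replicate 2).

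Outside the 56 members the table lists 89 genes under the KEGG pathway axon guidance, of which 35 are also in the list of 71. Of 80 tested, 4 rose (5.0%, against 2.06% of all tested genes) and 3 fell (3.75%, against 4.86%). Cxcl12, Rock2 and Rasa1 are 3 of these 7 genes and are counted in both lists. Of the other 4, Wnt4, a secreted Wnt ligand, had 4.74, 3.10 and 4.03 TPM in OM plus EMPA, against 1.94, 1.27 and 1.52 TPM in OM (log2 fold change 0.94, adjusted p = 0.0167 from limma). Myl9, a myosin light chain of smooth muscle, also rose, averaging 350 ± 17.6 TPM in OM plus EMPA, against 274 ± 29.9 TPM in OM (SD, n = 3 each, log2 fold change 0.36, adjusted p = 0.0391 from limma). Boc, a cell surface receptor of hedgehog proteins, fell and averaged 11.4 ± 1.15 TPM in OM plus EMPA, against 16.4 ± 1.49 TPM in OM (SD, n = 3 each, log2 fold change -0.49, adjusted p = 0.0244 from limma). Ppp3ca, a catalytic subunit of calcineurin, fell and averaged 34.9 ± 1.95 TPM in OM plus EMPA, against 43.9 ± 1.65 TPM in OM (SD, n = 3 each, log2 fold change -0.32, adjusted p = 0.0185 from limma). With 1 library left out, Wnt4 lost its call in 3 of 6 fits, Boc and Ppp3ca in 4 each and Myl9 in 5, with an adjusted p from limma of up to 0.123 (Myl9 without OM plus EMPA replicate 2).

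**Figure D4:**
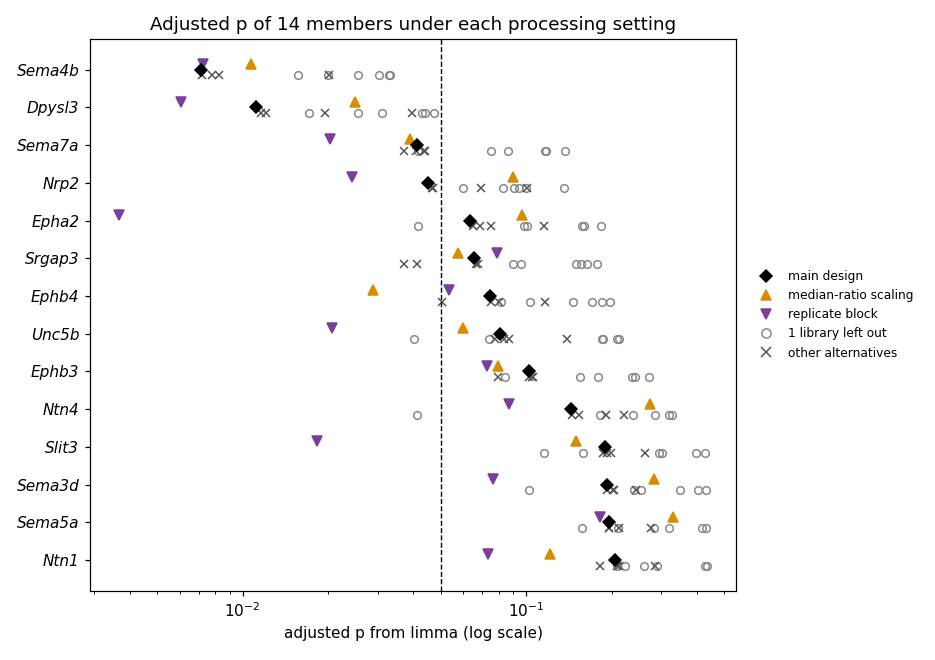
Adjusted p from limma on a log axis for the 14 members with an unadjusted p of at most 0.05, under the main design (diamonds), median-ratio scaling, the replicate block, each of 6 fits with 1 library left out and the other alternatives. The dashed line is the threshold of 0.05. Sema4b and Dpysl3 lie left of it in every setting, while the other members cross it or lie right of it.

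Of the 41 tested members, 14 had an unadjusted p of at most 0.05, against 3024 of all 12564 tested genes (24.1%). Of these 14 members 7 were higher (17.1% of the 41, against 6.42% of all tested genes) and 7 lower (17.1%, against 17.6%). The calls of these 14 members under the alternatives are shown in the plot of adjusted p by setting. Sema4b and Dpysl3 were the members called in all of the 12 alternatives.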

How the data were processed

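RNA of 3 OM plus EMPA and 3 OM samples was sequenced on an Illumina platform. The authors deposited gene-level TPM for each sample. RSEM, HISAT2 2.0.5, fastp and DESeq2 are listed in the submitters' processing notes, with no role. For the genome build, no name is given in the sources used here. The kit is not stated to mark strand, so reads of genes that overlap, on either strand, may not be separable. Unc5b (Slc29a3), Efna2 (Dazap1), Sema3b (Lsmem2) and Epha1 (Zyx) overlap another listed gene. TPM keep no depth, so counting intervals could not be given. The table also holds columns of the authors' own comparison (log2 fold change, p-value, adjusted p and direction), which were not used, and neither was a second table, a subset selected on that comparison. There were 0 columns of unknown sample.

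TPM were transformed as log2(TPM + 1), which understates the fold change of low genes. Genes averaging 1 TPM or more over the 6 libraries were tested with limma 3.58.1 in R 4.3.3, with a variance trend, group as the only term, two-sided tests and Benjamini-Hochberg adjustment over all 12564 genes. The procedure was tested on simulated data, with log2 changes of 0.585 to 1.5 in the more abundant genes. Changes as small as those of Sema4b, Nrp2 and Dpysl3 were not simulated. Values were summarised with Python 3.11.15, pandas 2.3.3 and numpy 2.4.6 and plotted with matplotlib 3.10.9.

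The members, the pathway list, the 4 lists of cell type markers and the alternatives were chosen with earlier results of these data known. Values in every library were given for each member with an adjusted p of at most 0.05 and for the 2 members with the highest mean TPM in each role class (all semaphorins as 1 class). Fold changes or levels were given for members with an unadjusted p of at most 0.05, members whose groups did not overlap, members under the filter and partners of called members. Genes of the pathway list and of the KEGG pathway were named where called. Results on a further marker list and on some pathway genes are not reported here. Neo1, the exchange factors and the library values of some further members were added after their values were seen. The alternatives were a pseudocount of 0.1, no filter, the replicate number as a block, median-ratio scaling, TPM without mitochondrially encoded genes, no variance trend and each library left out in turn. Promoter sequences came from RefSeq (GRCr8) by gene symbol.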

Additional observations from a re-analysis of the deposited data

How the results depend on the processing

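The 14 members with an unadjusted p of at most 0.05 kept the sign of their log2 fold change in all 12 alternatives, and Sema4b and Dpysl3 also kept their call. Over all tested genes, median-ratio scaling gave 393 higher and 380 lower calls, and no variance trend gave 154 higher and 366 lower. With 1 library left out, calls numbered 80 to 216 (higher) and 245 to 438 (lower). Members called higher numbered 2 without the filter (Sema7a and Srgap3, beside 1.86% of all genes), 2 under median-ratio scaling (Sema7a, Ephb4), 2 without a variance trend (Sema7a, Srgap3) and 0 to 2 with 1 library left out. They numbered 2 without OM plus EMPA replicate 1 (Sema7a, Unc5b) and 0 without any other single library. Members called lower numbered 2 to 3 with 1 library left out. Pathway genes called higher numbered 1 to 5 and those called lower 1 to 2 with 1 library left out. The cause of these differences was not tested.

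Replicate numbers are shared between the groups, but the labels do not tie them to a culture, and the deviations of same-numbered libraries correlated at 0.098, 0.162 and 0.058, so the numbers were not taken to pair the samples. Each library correlated best with its own number, a hint from the data only. With the replicate number as a block, 449 genes (3.57%) were higher and 951 (7.57%) lower, 3 members were higher (Sema7a, Slit3, Unc5b) and 4 lower (Dpysl3, Epha2, Nrp2, Sema4b), and 4 pathway genes were lower. The block gave adjusted p-values from limma of 0.00368 for Epha2, 0.0207 for Unc5b and 0.0183 for Slit3, which did not pass without it. Precision is limited by 3 libraries a group and by levels under 1 TPM for 15 members.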
